A study of Mus musculus with 9 samples.

Results

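The genes described are 9 that encode the signalling core of the T cell: the CD3 chains (Cd3d, Cd3e, Cd3g), the co-receptors (Cd4, Cd8a, Cd8b1), the kinase Lck and the regulators Cd5 and Cd28. They were taken by symbol as a functional group, by a rule that sets no threshold on measured values, and all 9 were among the 21983 genes of the count table. RNA-seq was done on lung of BALB/c mice (an inbred strain), with 3 libraries in each of 3 groups. The BSYQF libraries came from asthmatic mice of a chronic model that were treated for 6 weeks with Bu-Shen-Yi-Qi, a Chinese herbal formula, given orally from day 14 at 20 g raw herbs per kg of body weight. The asthma libraries came from asthmatic mice and the control libraries from normal mice, and both of these groups had oral saline from day 14. How asthma was induced, the age and sex of the animals, and whether libraries share a mouse are not stated in the labels. The p-values therefore cover the spread of the libraries, part of which may be technical.

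In background, the T cell receptor recognises a peptide held by an MHC molecule but has almost no cytoplasmic part, so it signals through the CD3 chains and the zeta chain (Cd247), whose tails carry tyrosine activation motifs. CD4 binds MHC class II on helper T cells and CD8 binds MHC class I on cytotoxic T cells, and both bring the kinase LCK, which phosphorylates those motifs. CD28 gives the co-stimulatory signal, and CD5 damps signalling. In allergic asthma, CD4 helper T cells of the type 2 kind are the T cells best known for driving airway inflammation.

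Libraries held 16286385 to 22819199 counts. Levels are CPM, the counts of a gene scaled to a common library size by the TMM method, and mean ± SD is over 3 libraries. The lung label was met by the tissue's markers: 10 epithelial and endothelial genes, among them the surfactant gene Sftpc and the club cell gene Scgb1a1, summed to 46546 to 75098 CPM in every library. On the first principal component of all tested genes asthma replicate 3 (1.77) stood apart from asthma replicates 1 and 2 (51.9 and 76.0). On the same component BSYQF replicate 1 (40.5) stood apart from BSYQF replicates 2 and 3 (1.20 and -19.6). Of the 9 genes 8 passed the filter on low counts and were tested, and Cd28 did not. A gene was called at an adjusted p under 0.05 in edgeR's quasi-likelihood test over 14739 genes.

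The 3 CD3 genes lie close together on chromosome 9 (mm10). Cd3g lies on the minus strand at chr9:44969572-44980431, and Cd3d on the plus strand at chr9:44981786-44987339, so that both start from the 1354 bases between them and run apart. Cd3e follows on the minus strand at chr9:44998740-45009627. Cd8b1 (chr6:71322788-71337494) and Cd8a (chr6:71373427-71379173) neighbour each other on the plus strand, and Cd4 (chr6:124864692-124888221) is on the minus strand of that chromosome. Lck is at chr4:129548344-129573641 and Cd5 at chr19:10717116-10739002, both on the minus strand, and Cd28 at chr1:60716800-60773359 on the plus strand. All 9 are protein coding. No exon overlapped another gene except 3.31% of Cd3e's exon bases, shared with an opposite-strand gene, and 0.854% of Lck's, shared with a microRNA.

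The 250 bases before the start are shown for the CD3 genes, which are neighbours, and for Cd5, which had the largest fold change against control. Sequences are from RefSeq (GRCm38.p6), 5′ to 3′ on the gene's strand. The windows end at the RefSeq start, which for Cd3e and Cd5 lies inside the GENCODE coordinates given above, so the last bases of these 2 windows fall within the GENCODE gene. Capitals mark AGGAAG, a core bound by ETS factors, and CACCTG, an E-box bound by factors such as E2A, on either strand.
Cd3d, chr9:44981536-44981785, plus strand: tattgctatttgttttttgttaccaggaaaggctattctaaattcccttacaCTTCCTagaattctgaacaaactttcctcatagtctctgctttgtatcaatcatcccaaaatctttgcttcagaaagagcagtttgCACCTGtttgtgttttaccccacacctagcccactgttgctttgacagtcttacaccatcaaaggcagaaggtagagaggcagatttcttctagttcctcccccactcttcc
Cd3g, chr9:44980432-44980681, minus strand: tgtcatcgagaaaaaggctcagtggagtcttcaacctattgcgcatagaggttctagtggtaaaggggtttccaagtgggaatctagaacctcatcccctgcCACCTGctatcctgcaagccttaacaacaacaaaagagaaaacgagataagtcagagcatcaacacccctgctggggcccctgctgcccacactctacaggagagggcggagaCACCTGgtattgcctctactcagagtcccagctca
Cd3e, chr9:45009612-45009861, minus strand: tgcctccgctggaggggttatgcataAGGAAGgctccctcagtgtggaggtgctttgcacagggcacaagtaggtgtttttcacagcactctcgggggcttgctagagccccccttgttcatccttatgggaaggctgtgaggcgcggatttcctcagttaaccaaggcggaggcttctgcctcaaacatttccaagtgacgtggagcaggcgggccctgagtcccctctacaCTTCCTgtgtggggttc
Cd5, chr19:10738975-10739224, minus strand: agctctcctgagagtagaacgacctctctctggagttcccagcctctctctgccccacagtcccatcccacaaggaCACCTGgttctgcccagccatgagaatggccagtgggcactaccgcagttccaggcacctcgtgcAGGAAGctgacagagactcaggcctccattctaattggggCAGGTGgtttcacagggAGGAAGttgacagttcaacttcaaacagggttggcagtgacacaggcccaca
Of the 9 genes 6 had an entry, with 7 windows in all, since Lck has 2. AGGAAG or its reverse complement CTTCCT was in 5 of the 7 windows and in 29.5% of all 32851 promoter windows of this length. CACCTG or CAGGTG was in 4 of the 7 and in 17.2% of all. TGTGGT or ACCACA, a core bound by RUNX factors, was in 1 of the 7, an Lck window, and in 14.0% of all. TATAAA or TTTATA, the TATA box, was in 0 of the 7 and in 12.4% of all. No matches overlapped each other, and a match describes these letters and not a bound site.

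All 8 tested genes had a higher mean in BSYQF lungs than in asthma lungs and than in control lungs, by 1.33-fold to 2.22-fold. Between asthma and control lungs the fitted folds were at most 1.35 in either direction. A fold change above 0 on the log2 scale was seen in 49.3% of all tested genes in BSYQF against asthma and 49.7% in BSYQF against control. None of the 8 was called in any comparison by edgeR, beside 0.00678% of all tested genes called in BSYQF against asthma, 1.67% in BSYQF against control and 12.7% in asthma against control. In BSYQF against asthma, 5 of the 8 were higher at an unadjusted p under 0.05, beside 3.79% of all genes. The count was 6 of the 8 in BSYQF against control, beside 10.1% of all genes. For asthma against control it was 0 in each direction, beside 19% of all genes higher and 15.1% lower. DESeq2 called 1 of the 8 in BSYQF against asthma (0.835% of all genes), 2 in BSYQF against control (5.61%) and 0 in asthma against control (22.5%). limma voom called 0 in each, beside 0%, 0.611% and 8.67% of all genes in the same comparisons. Both BSYQF comparisons use the same BSYQF libraries, so they are not independent. In whole lung, more T cells and more RNA per T cell cannot be told apart, and the part of other cells and tissues in these values was not tested.

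**Figure D1:**
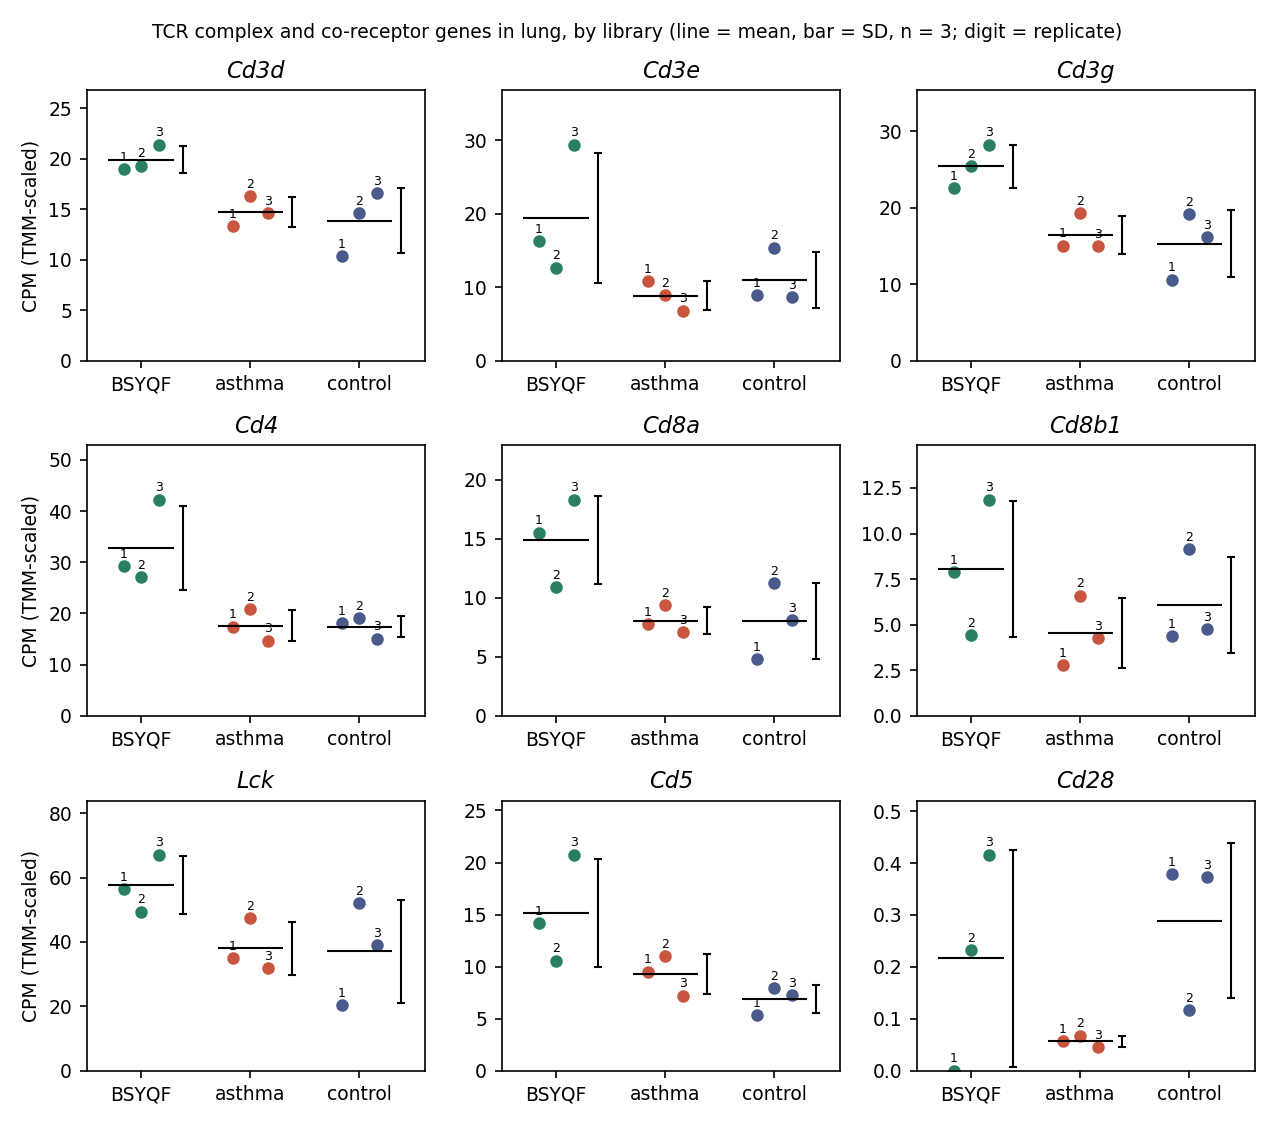
TMM-scaled CPM of the 9 genes in each library of the BSYQF, asthma and control groups (points, with the replicate number; line and bar are mean and SD, n = 3, axes start at 0). BSYQF replicate 3 is the highest library for all 8 tested genes, and Cd28 stays under 0.5 CPM.

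Among the CD3 chains, Cd3d, the delta chain, was at 19.0, 19.3 and 21.4 CPM in BSYQF lungs, 13.3, 16.3 and 14.6 CPM in asthma lungs and 10.3, 14.6 and 16.6 CPM in control lungs. Cd3g, the gamma chain, was at 22.5, 25.4 and 28.3 CPM in BSYQF lungs, 15.1, 19.3 and 14.97 CPM in asthma lungs and 10.6, 19.2 and 16.2 CPM in control lungs. For both genes every BSYQF library was above every asthma and every control library, and the asthma and control libraries overlapped. The log2 fold changes of BSYQF over asthma were 0.43 ± 0.20 (SE) for Cd3d and 0.63 ± 0.23 for Cd3g (adjusted p = 0.622 and 0.581). Over control they were 0.52 ± 0.20 and 0.73 ± 0.23 (adjusted p = 0.244 and 0.150). Without control replicate 1 the value of Cd3d over control was 0.35. Cd3e, the epsilon chain that pairs with each of the others, was at 16.2, 12.7 and 29.4 CPM in BSYQF lungs, 10.8, 8.87 and 6.81 CPM in asthma lungs and 8.92, 15.4 and 8.67 CPM in control lungs. Its BSYQF libraries lay above the asthma ones but overlapped the controls, where replicate 2 was high. It had the largest log2 fold change of BSYQF over asthma among the 8, 1.14 ± 0.34 (adjusted p = 0.513), and 0.82 ± 0.34 over control (adjusted p = 0.274). BSYQF replicate 3 was 2.04 times the mean of the other 2 BSYQF libraries, and without it the values were 0.71 over asthma (adjusted p = 0.999) and 0.39 over control (adjusted p = 0.494). The authors' deposited table for BSYQF against asthma lists Cd3e as the 1 gene of the 9, with a log2 fold change of 1.15, p = 0.00146 and an adjusted p of 0.172.

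Of the co-receptors, Cd4 was at 29.2, 27.1 and 42.3 CPM in BSYQF lungs, 17.4, 20.8 and 14.7 CPM in asthma lungs and 18.1, 19.1 and 15.1 CPM in control lungs. Every BSYQF library exceeded all 6 others, and the asthma and control libraries lay in the same range. The log2 fold change of BSYQF over asthma was 0.90 ± 0.21, with a 95% interval of 0.43 to 1.37 and an adjusted p of 0.315. Over control it was 0.92 ± 0.21, with an interval of 0.45 to 1.38 and an adjusted p of 0.0593. Cd4 was called by DESeq2 in both comparisons (adjusted p = 0.0192 and 0.00515), and by edgeR against control without asthma replicate 3 (adjusted p = 0.0370). Without asthma replicate 3 and BSYQF replicate 1 together, an alternative chosen after seeing the data, Cd4 was called in both (adjusted p = 0.0441 and 0.0394). That alternative called 1744 of all genes in BSYQF against asthma, where the main fit called 1. limma voom called Cd4 in neither (adjusted p = 0.530 and 0.0966). Mouse dendritic cells can also carry CD4 and CD8 alpha. Of 11 dendritic cell markers 5 rose in asthma against control, where only 6 of the 11 had a log2 fold change above 0. In BSYQF against asthma 9 of the 11 had a log2 fold change at or under 0. Their summed level was 310 to 665 CPM in BSYQF lungs, 406 to 638 CPM in asthma lungs and 262 to 280 CPM in control lungs. Itgax alone was at 342, 116 and 53.0 CPM in BSYQF lungs, 207, 291 and 108 CPM in asthma lungs and 30.4, 32.0 and 31.2 CPM in control lungs. The 4 with the smallest p in asthma against control were Itgax (2.69 ± 0.61), Batf3 (2.47 ± 0.61), Bst2 (0.89 ± 0.23) and Xcr1 (0.97 ± 0.26), with adjusted p of 0.0292, 0.0310, 0.0352 and 0.0402. Others of the list, none called, had lower means in asthma than in control lungs. Among them were Clec9a (33.1 ± 6.08 and 47.9 ± 6.88 CPM) and Zbtb46 (32.4 ± 10.8 and 40.7 ± 4.45 CPM).

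Cd8a, the alpha chain of CD8, was at 15.5, 10.9 and 18.3 CPM in BSYQF lungs, 7.75, 9.34 and 7.08 CPM in asthma lungs and 4.81, 11.2 and 8.09 CPM in control lungs. The BSYQF and asthma libraries did not overlap, and BSYQF replicate 2 lay under control replicate 2. The log2 fold changes were 0.89 ± 0.31 over asthma (adjusted p = 0.579) and 0.89 ± 0.31 over control (adjusted p = 0.201). Cd8b1, the beta chain that marks conventional CD8 T cells, was at 7.87, 4.42 and 11.9 CPM in BSYQF lungs, 2.77, 6.59 and 4.26 CPM in asthma lungs and 4.38, 9.13 and 4.73 CPM in control lungs. All 3 groups overlapped, and its intervals were the widest of the 8. The log2 fold changes were 0.83 ± 0.44 over asthma (adjusted p = 0.628) and 0.41 ± 0.44 over control (adjusted p = 0.676). The value over asthma was 0.44 without BSYQF replicate 3. The value over control was 0.0152 without BSYQF replicate 3, 0.22 and 0.26 without control replicates 1 and 3, 0.82 without control replicate 2 and 0.70 without BSYQF replicate 2.

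The ratio of Cd4 to Cd8a counts within a library does not depend on how libraries are scaled. On the log2 scale it was 0.91, 1.32 and 1.20 in BSYQF lungs, 1.17, 1.15 and 1.05 in asthma lungs and 1.91, 0.76 and 0.89 in control lungs. The groups overlapped, and control replicate 1 was far above the other libraries. The mean difference was 0.024 for BSYQF minus asthma, -0.043 for BSYQF minus control and -0.067 for asthma minus control (two-sided exact permutation p = 0.8, 1 and 1, n = 3 each, where 0.1 is the smallest p possible; adjusted over the 3 comparisons, p = 1 each). With 3 libraries a group no difference could pass 0.05 in this test, and the control SD was 0.63 on this scale.

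**Figure D2:**
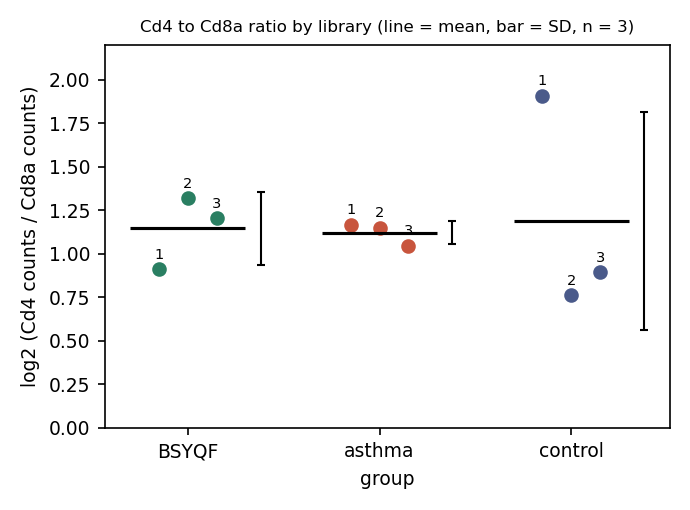
log2 ratio of Cd4 to Cd8a counts in each library of the BSYQF, asthma and control groups (points with replicate numbers; line and bar are mean and SD, n = 3). The BSYQF libraries run from 0.91 to 1.32 and the asthma libraries lie within that range, while control replicate 1 is at 1.91.

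Lck, the kinase that starts the cascade, was the most abundant of the 9 per length of exon, at 19.7 ± 3.05 CPM per kb in BSYQF lungs, 13.0 ± 2.82 in asthma lungs and 12.7 ± 5.47 in control lungs. Cd3d came next at 10.95 ± 0.728 CPM per kb in BSYQF lungs, 8.11 ± 0.819 in asthma lungs and 7.63 ± 1.77 in control lungs. Lck and Cd3d were apart by more than their SDs in BSYQF and asthma lungs but not in control lungs. Below them in BSYQF lungs came Cd4 (8.15 ± 2.04 CPM per kb), Cd3g (7.77 ± 0.877), Cd8b1 (5.43 ± 2.51), Cd3e (4.76 ± 2.16), Cd8a (4.10 ± 1.03) and Cd5 (3.08 ± 1.05), and the SD ranges of each neighbouring pair from Cd4 to Cd5 overlapped. Cd28 was last in all groups, at 0.0353 ± 0.0341 CPM per kb in BSYQF lungs, 0.00918 ± 0.00183 in asthma lungs and 0.0472 ± 0.0244 in control lungs. Per library, Lck was at 56.4, 49.4 and 67.2 CPM in BSYQF lungs, 34.9, 47.5 and 31.9 CPM in asthma lungs and 20.3, 52.1 and 38.9 CPM in control lungs. Its BSYQF libraries lay above the asthma ones, and control replicate 2 reached into the BSYQF range. The log2 fold changes were 0.60 ± 0.29 over asthma (adjusted p = 0.622) and 0.64 ± 0.29 over control (adjusted p = 0.318). The value over control was 0.34 without control replicate 1 and 0.96 without control replicate 2.

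Cd5, the damping receptor, was at 14.2, 10.6 and 20.8 CPM in BSYQF lungs, 9.51, 11.0 and 7.22 CPM in asthma lungs and 5.35, 7.96 and 7.24 CPM in control lungs. Its BSYQF libraries lay above all controls, and asthma replicate 2 lay just above BSYQF replicate 2. Cd5 is also present on a subset of B cells. It had the largest log2 fold change over control, 1.15 ± 0.29 with a 95% interval of 0.51 to 1.78 (adjusted p = 0.0791), and 0.72 ± 0.29 over asthma (adjusted p = 0.609). Without BSYQF replicate 3 the value over asthma was 0.42. DESeq2 called it against control (adjusted p = 0.00858), and limma voom did not (adjusted p = 0.132). The authors' deposited table for BSYQF against control lists it as the 1 gene of the 9, with a log2 fold change of 1.15, p = 0.000262 and an adjusted p of 0.00633.

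Cd28 had 0, 4 and 8 counts in the BSYQF libraries, 1, 1 and 1 in the asthma libraries and 7, 2 and 7 in the control libraries. It was not tested, and no fold is given. The 0 in BSYQF replicate 1 allows up to 0.182 CPM, the level of 3 counts, and this limit covers counting error only. Its relatives Ctla4 and Icos, which lie beside it within 283521 bases of chromosome 1, reached no more than 1 and 0 counts. Pdcd1, another family member, was tested. Such low values may reflect how reads were assigned to genes, and they do not show that the transcripts were absent.

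**Figure D3:**
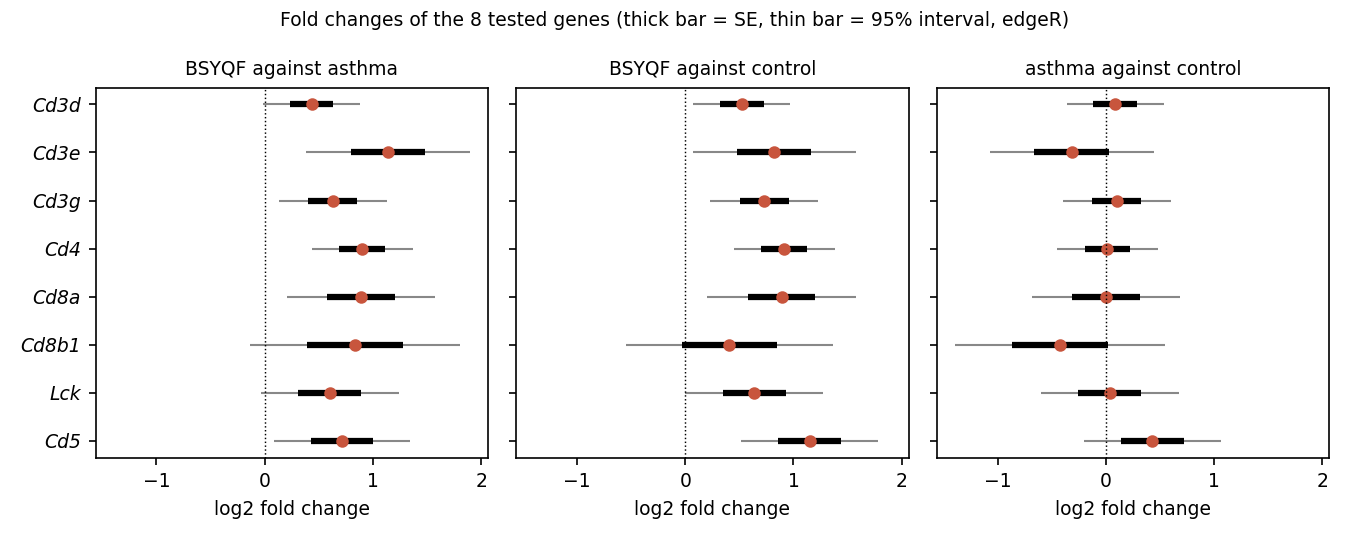
log2 fold changes of the 8 tested genes in BSYQF against asthma, BSYQF against control and asthma against control (points; thick bars SE, thin bars 95% intervals, edgeR with 3 libraries a group). All 8 points are above 0 in both BSYQF comparisons, and all 8 intervals include 0 in asthma against control.

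All BSYQF libraries exceeded all libraries of the other group in 6 of the 8 genes in BSYQF against asthma (4.99% of all genes) and in 4 of the 8 in BSYQF against control (13% of all genes). Between asthma and control no gene of the 8 had groups apart in either direction, beside 22% of all genes higher and 18.4% lower. The median log2 fold change of the 8 was 0.78 in BSYQF against asthma and 0.78 in BSYQF against control, where the medians of all genes were -0.0048 and -0.0025. The 8 had a median of 0.026 in asthma against control beside 0.015 for all genes, with 6 of the 8 above 0 (51.2% of all genes). The largest of those values was Cd5 at 0.43 ± 0.29 (95% interval -0.20 to 1.07, adjusted p = 0.311), and the lowest were Cd8b1 at -0.42 ± 0.44 (-1.40 to 0.55, adjusted p = 0.523) and Cd3e at -0.32 ± 0.34 (-1.07 to 0.44, adjusted p = 0.541). For Cd4 the interval was -0.45 to 0.48 and for Cd8a -0.69 to 0.69. Changes within these limits could have gone uncalled, as could some larger ones, since calls used p-values adjusted over all tested genes. The signs of Cd3d, Cd3e, Cd3g, Cd4, Cd8a and Lck in asthma against control turned under some of the alternatives run.

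BSYQF replicate 3 was the highest of the 9 libraries for all 8, and control replicate 1 the lowest for 5, namely Cd3d, Cd3g, Cd8a, Lck and Cd5. Over the 9 libraries, Pearson's r of log2 CPM between pairs ran from 0.557 (Cd3d with Cd8b1) to 0.963 (Cd8a with Lck), with a median of 0.817, where libraries and depth are shared. Among the CD3 genes r was 0.948 for Cd3d with Cd3g, 0.745 for Cd3e with Cd3g and 0.615 for Cd3d with Cd3e. Within the BSYQF group, Cd3d varied least (coefficient of variation 6.65%) and Cd8b1 most (46.3%). Without BSYQF replicate 3, the 8 fold changes stayed above 0 in both BSYQF comparisons, with medians of 0.51 over asthma and 0.58 over control. Then 2 of the 8 were higher over asthma at an unadjusted p under 0.05 (2.01% of all genes) and 3 over control (12.6% of all genes). Without control replicate 1 the count over control was likewise 3 (7.72% of all genes). Without asthma replicate 1 or 3 the count over asthma was 3 each (2.65% and 10.7% of all genes), and without asthma replicate 2 it was 8 (2.92%).

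The other 8 genes closest to the mean profile of these genes over the 9 libraries were H2-Ob (r = 0.968), Dtx1 (0.967), Cyfip2 (0.965), Ikzf1 (0.958), Grk6 (0.957), Ikzf3 (0.956), Ciita (0.956) and Mef2c (0.954). H2-Ob, a subunit of the class II regulator DO that B cells and some dendritic cells express, averaged 34.4 CPM in BSYQF lungs, 21.2 CPM in asthma lungs and 19.5 CPM in control lungs. Ikzf3, the lymphocyte transcription factor Aiolos, averaged 51.7, 28.7 and 28.1 CPM in the same groups.

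Of the other receptor genes 2 of 5 listed were in the table. Cd247, the zeta chain, was at 18.8 ± 6.00 CPM in BSYQF lungs, 13.95 ± 3.98 CPM in asthma lungs and 13.3 ± 4.67 CPM in control lungs. Its log2 fold changes were 0.43 ± 0.31 over asthma and 0.50 ± 0.31 over control (adjusted p = 0.667 and 0.454). Trat1, an adaptor that binds the zeta chain, had 0.43 ± 0.37 and 0.13 ± 0.37 (adjusted p = 0.715 and 0.888). The constant segments Trac, Trbc1 and Trbc2 were not analysed here. Of 20 genes of signalling just below the receptor none was called in BSYQF against asthma or against control, with 17 above 0 in each and medians of 0.44 and 0.41. Asthma against control had 2 that rose and 1 that fell (median -0.11). Vav1, a guanine exchange factor also active in macrophages and B cells, rose to 81.3 ± 32.9 CPM in asthma lungs, against 29.5 ± 7.0 CPM in control lungs (1.46 ± 0.29, adjusted p = 0.0162). The adaptor Lcp2 (SLP-76), shared with myeloid cells, rose by 0.91 ± 0.20 (adjusted p = 0.0221), and the phospholipase Plcg1 fell by 0.57 ± 0.15 (adjusted p = 0.0364).

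Of 15 inhibitors of receptor signalling, Lax1 and Dok1 (0.54 ± 0.14, adjusted p = 0.0385) rose and Dgkz fell (-0.56 ± 0.16, adjusted p = 0.0462) in asthma against control (median 0.19). Lax1, an adaptor of T and B cells, was at 42.0 ± 3.99 CPM in BSYQF lungs, 38.6 ± 13.5 CPM in asthma lungs and 12.1 ± 2.48 CPM in control lungs. It was called in asthma against control (1.67 ± 0.25, adjusted p = 0.00813) and was the 1 gene of the list called in BSYQF against control (1.80 ± 0.25, adjusted p = 0.0101). None was called in BSYQF against asthma (median 0.27). Of 21 genes of the CD28 family and co-stimulation 18 were tested. Among these, 8 rose in asthma against control and 0 fell (median 0.54). In BSYQF against control 5 rose and 0 fell (median 0.90), and none was called in BSYQF against asthma (median 0.26). Pdcd1, the inhibitory receptor PD-1, was at 5.55 ± 0.761 CPM in BSYQF lungs, 5.14 ± 0.927 CPM in asthma lungs and 1.31 ± 0.214 CPM in control lungs (2.08 ± 0.31 for BSYQF over control, adjusted p = 0.0108; 1.97 ± 0.31 for asthma over control, adjusted p = 0.00873). Tnfrsf9, the activation receptor 4-1BB, was at 8.10 ± 2.03, 17.7 ± 6.03 and 1.39 ± 0.722 CPM in BSYQF, asthma and control lungs. It was called in asthma against control (3.65 ± 0.42, adjusted p = 0.00293) and in BSYQF against control (2.52 ± 0.41, adjusted p = 0.0161). In BSYQF against asthma it was not called (-1.13 ± 0.37, adjusted p = 0.562). Pdcd1lg2, the PD-1 ligand PD-L2, rose over control in BSYQF lungs (3.16 ± 0.66, adjusted p = 0.0392) and in asthma lungs (3.75 ± 0.67, adjusted p = 0.0108). Cd86, a ligand of CD28 on presenting cells, likewise rose over control in BSYQF lungs (1.28 ± 0.25, adjusted p = 0.0338) and in asthma lungs (0.95 ± 0.25, adjusted p = 0.0383).

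Of 18 naive and memory T cell genes, 1 rose in asthma against control, the adhesion receptor Cd44, which many cells carry (0.97 ± 0.15, adjusted p = 0.00873; median of the list -0.31). None was called in BSYQF against asthma (17 of 18 above 0, median 0.40) or against control (12 of 18 above 0, median 0.068). Of 13 lineage regulators, Irf4 (1.98 ± 0.37, adjusted p = 0.0128) and Batf (1.75 ± 0.34, adjusted p = 0.0139) rose in asthma against control (median 0.051), and Irf4 rose in BSYQF against control (2.24 ± 0.38, adjusted p = 0.0179; median 0.34). Both factors also act in B cells and dendritic cells. None was called in BSYQF against asthma (median 0.10).

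Markers of other cells and tissues that lung could hold were measured in the same libraries. B cell markers (10 genes) summed to 803, 470 and 829 CPM in BSYQF lungs, 451, 639 and 343 CPM in asthma lungs and 203, 531 and 331 CPM in control lungs, with 0 of 10 called and medians of 0.56 over asthma and 0.84 over control. Cd79a, a chain of the B cell receptor, was at 148 ± 42.0, 101 ± 28.2 and 68.3 ± 35.1 CPM in BSYQF, asthma and control lungs. Its partner Cd79b was at 113 ± 20.0, 87.8 ± 22.0 and 64.6 ± 28.3 CPM. Lymph node stroma and follicle markers (9 genes) summed to 216, 224 and 457 CPM in BSYQF lungs, 104, 126 and 111 CPM in asthma lungs and 205, 96.2 and 102.4 CPM in control lungs, with 0 of 6 tested called, 6 above 0 over asthma and 4 above 0 over control, and medians of 1.05 and 1.07. BSYQF replicate 3, the highest library of all 8 genes, was again the highest. Enpp2, which encodes autotaxin, was at 89.4 ± 10.4 CPM in BSYQF lungs, 55.2 ± 13.9 CPM in asthma lungs and 92.3 ± 33.0 CPM in control lungs, so BSYQF and control were close (-0.05 ± 0.24, adjusted p = 0.943). Cxcl13, a chemokine of B cell follicles, was at 64.0 ± 15.9 CPM in BSYQF lungs, 40.2 ± 16.4 CPM in asthma lungs and 20.1 ± 23.6 CPM in control lungs. Glycam1, a mucin-like ligand made by high endothelial venules, was chosen for its size after its values were seen, and had 489, 1142 and 4001 counts in BSYQF lungs, 0, 10 and 64 in asthma lungs and 193, 6 and 14 in control lungs. Its BSYQF levels were 29.6, 66.3 and 208 CPM, so much of the list's sum in BSYQF replicate 3 was this 1 gene. In contrast, Ccl21a had at most 3 counts in any library and Ccl19 had 0, values that do not show absence, as for Cd28.

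The defining thymocyte markers Rag1, Rag2 and Ptcra, named after their values were seen, had 0 counts in every BSYQF and every asthma library. In control libraries Rag1 had at most 2 counts, Rag2 at most 1 and Ptcra 0, and Dntt had at most 3 in any library. As for Cd28, such low values do not show absence. The 8 thymocyte markers summed to 19.0 to 25.7 CPM in BSYQF lungs, 13.7 to 20.6 CPM in asthma lungs and 15.7 to 18.9 CPM in control lungs. Of the 3 tested, none was called. Cd1d1, which many presenting cells express, was at 12.1 ± 2.67, 11.0 ± 3.39 and 12.2 ± 1.62 CPM in BSYQF, asthma and control lungs, while Tox, which mature T cells also express, was at 7.32 ± 0.727, 3.54 ± 0.231 and 3.33 ± 0.457 CPM in BSYQF, asthma and control lungs (BSYQF over asthma 1.05 ± 0.26, adjusted p = 0.346). NK cell markers (11 genes) summed to 143, 124 and 71.0 CPM in BSYQF lungs, 151.8, 173 and 93.2 CPM in asthma lungs and 85.8, 245 and 220 CPM in control lungs, with 0 of 9 tested called and medians of -0.22 over asthma and -0.73 over control. BSYQF replicate 3 was the lowest library of this list. Gzma, a granzyme of NK and cytotoxic T cells, was at 40.8 ± 16.0, 55.9 ± 15.05 and 76.9 ± 40.2 CPM in BSYQF, asthma and control lungs, and the perforin gene Prf1 was at 14.0 ± 4.90, 16.2 ± 5.64 and 23.1 ± 12.8 CPM.

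Cardiac muscle markers (10 genes) summed to 471, 627 and 1448 CPM in BSYQF lungs, 132, 138 and 246 CPM in asthma lungs and 567, 466 and 1062 CPM in control lungs. Adipocyte markers (7 genes) summed to 184, 293 and 555 CPM in BSYQF lungs, 86.8, 89.6 and 144 CPM in asthma lungs and 644, 254 and 175 CPM in control lungs. Of these, 9 cardiac and 5 adipocyte markers fell in asthma against control, and in BSYQF against asthma none was called (medians 2.27 and 4.30). Examples of the cardiac list are Ttn (-2.02 ± 0.35), Myl4 (-2.38 ± 0.41), Tnni3 (-2.16 ± 0.42) and Myl7 (-2.59 ± 0.52) in asthma against control, with adjusted p of 0.0101, 0.0108, 0.0148 and 0.0192. In the adipocyte list Adipoq (-5.78 ± 1.13), Cfd (-4.99 ± 0.95) and Fabp4 (-2.63 ± 0.58) fell in asthma against control (adjusted p = 0.0184, 0.0189 and 0.0262), and Lep, also called, had 0.931 ± 0.285 CPM in BSYQF lungs, 0 counts in the asthma libraries and 3.996 ± 2.69 CPM in control lungs. BSYQF replicate 3 was the highest library for cardiac markers and the highest of its group for adipocyte markers. Pan-leukocyte genes (7 genes) summed to 1529, 1253 and 1611 CPM in BSYQF lungs, 1404, 1685 and 984 CPM in asthma lungs and 643, 1057 and 812 CPM in control lungs, and 4 of 7 rose in asthma against control, Laptm5 (1.12 ± 0.24), Cd53 (1.11 ± 0.24), Ptpn7 (1.15 ± 0.25) and Cd52 (1.16 ± 0.31), with adjusted p of 0.0202, 0.0202, 0.0210 and 0.0406; none was called in the BSYQF comparisons. Macrophage markers (10 genes) summed to 5267, 1023 and 825 CPM in BSYQF lungs, 2105, 3092 and 1224 CPM in asthma lungs and 480, 365 and 347 CPM in control lungs. Much of these sums was Chil3, which was not called, at 4244, 227 and 240 CPM in BSYQF lungs, 1224, 2134 and 363 CPM in asthma lungs and 89.3, 72.8 and 54.5 CPM in control lungs. Mean log2(CPM + 0.5) of the list, minus the control mean, was 1.74, 1.185 and 0.96 in BSYQF lungs and 1.53, 1.58 and 1.49 in asthma lungs. Of the 10, 6 were called higher in asthma against control (median 1.80), 0 were called in BSYQF against asthma (median -0.15) and 3 were called higher in BSYQF against control (median 1.44). These 3 were the complement genes C1qb (1.74 ± 0.24), C1qc (1.88 ± 0.27) and C1qa (1.83 ± 0.26), each with an adjusted p of 0.0101, and they also rose in asthma against control, as did the mannose receptor Mrc1 (1.64 ± 0.28, adjusted p = 0.01005). The part of these other cells and tissues in the values of the 8 genes was not tested.

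**Figure D4:**
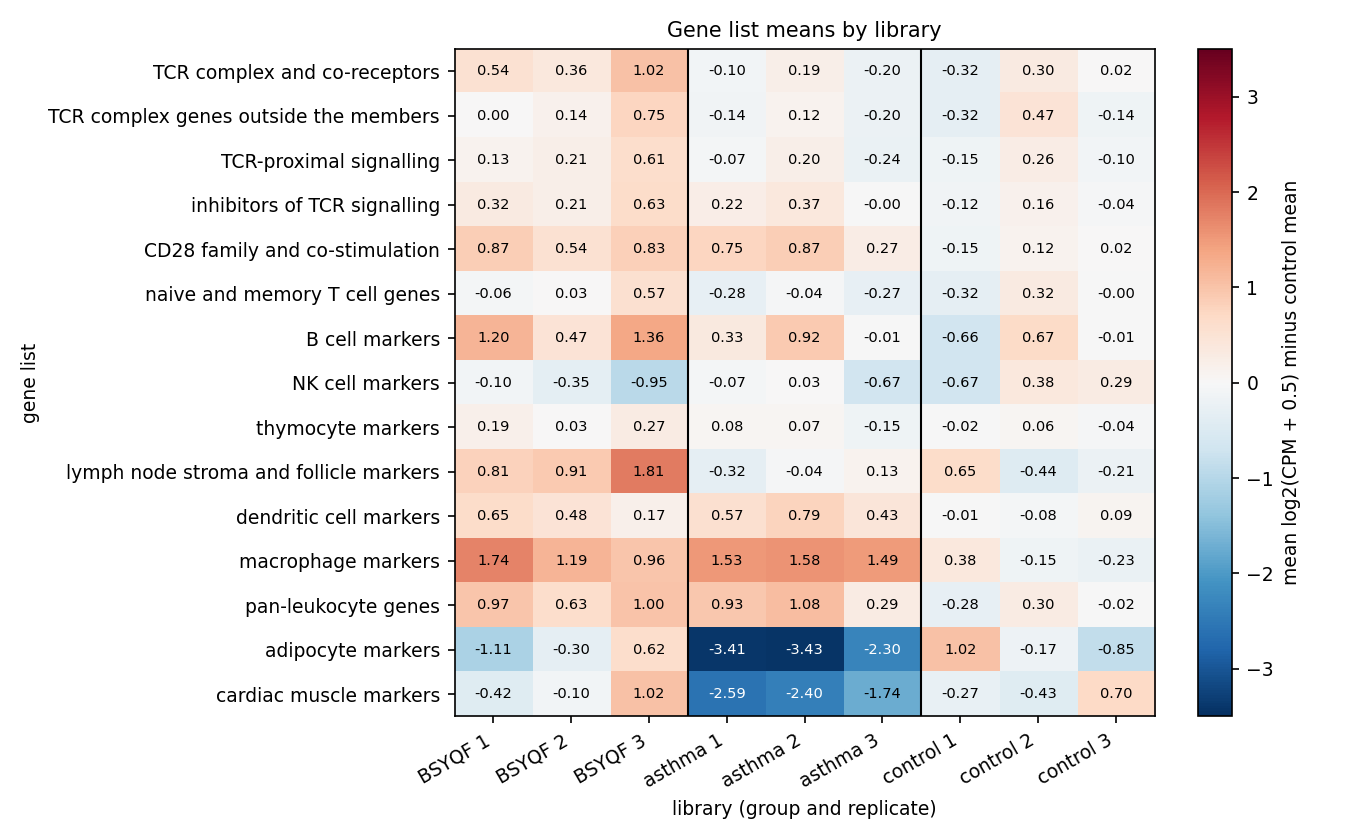
Mean log2(CPM + 0.5) of each gene list in each library, minus the control mean (red above, blue below; columns are the libraries of BSYQF, asthma and control). The receptor genes are at 0.54, 0.36 and 1.02 in BSYQF lungs, -0.10, 0.19 and -0.20 in asthma lungs and -0.32, 0.30 and 0.02 in control lungs. They are highest in BSYQF replicate 3, as are the B cell and lymph node lists, which share Cr2. The same library is highest for the other TCR complex genes and the signalling, inhibitor, naive and memory T cell, thymocyte and cardiac lists.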

How the data were processed

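Per the labels' protocols, Trizol RNA went into NEBNext Ultra libraries. The mm10 build and the tools DESeq2, HTSeq, STAR, cutadapt and FastQC are named in the submitters' processing notes, while their versions, the annotation and the use of strand are not stated there. Every test started from the raw gene counts of 9 libraries that the authors deposited. Their tables of 3 comparisons give log2 fold changes and p-values, per the file headers, and supplied only single values. These tables are labelled as cut on log2 fold change and unadjusted p, so they do not hold all genes. Their 36 further columns of values per library were not used.

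Counts were filtered with filterByExpr, scaled by TMM (factors 0.914 to 1.07) and tested with edgeR 4.0.16 under R 4.3.3 (quasi-likelihood with robust estimation, 1 model of the 3 groups, no replicate block, Benjamini-Hochberg adjustment over 14739 genes). The SE is the log2 fold change over the square root of the F statistic, and 95% intervals use the t distribution of the fit. The fit was tested on simulated data. Total counts per library set the precision, and 3 counts are 0.134 to 0.202 CPM. Alternatives were RLE scaling, other filters, DESeq2 1.42.0, limma 3.58.1 voom, the newer quasi-likelihood method, the compared groups alone, the replicate block and leaving out libraries. The genes, lists and tests were chosen with earlier results of these data known, although the rule for the 9 genes itself uses no value. Of each list the text names up to 4 called genes with the smallest p-values or, where none was called, the 2 with the highest mean; others named were chosen after their values were seen. The 8 most similar genes were those with the highest r to the mean centred log2 CPM (prior count 2) of the tested genes. Exon lengths and coordinates are from GENCODE vM21 on mm10, matched by symbol.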

Additional observations from a re-analysis of the deposited data

How the results depend on the processing

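The 8 fold changes stayed above 0 in BSYQF against asthma and against control under every alternative run. In asthma against control none of the 8 was called under any alternative. The signs of Cd4 and Cd8a there turned: Cd4 was at -0.0063 with RLE scaling, -0.0059 with a mean CPM of at least 1, -0.0067 with DESeq2 and -0.0087 with limma voom. Cd8a was at -0.0209 with RLE scaling and with DESeq2, -0.0023 with no filter and -0.0199 with a mean CPM of at least 1. Leaving out each library in turn gave -0.085 to 0.24 for Cd3d, -0.51 to 0.0033 for Cd3e, -0.11 to 0.29 for Cd3g, -0.14 to 0.12 for Cd4, -0.26 to 0.32 for Cd8a and -0.26 to 0.36 for Lck. For the log2 ratio of Cd4 to Cd8a it gave -0.28 to 0.29 in asthma minus control, -0.063 to 0.14 in BSYQF minus asthma and -0.26 to 0.32 in BSYQF minus control. It called 0 to 1 of the 8 genes in BSYQF against control and 0 in the other comparisons.

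DESeq2 called 1 of the 8 in BSYQF against asthma and 2 in BSYQF against control. Leaving out asthma replicate 3 and BSYQF replicate 1 together, an alternative chosen after seeing the data, called 1 in each. Over all genes, asthma against control gave 1869 calls, 3315 with DESeq2, 5361 without those 2 libraries and 171 to 4262 without single libraries. BSYQF against asthma gave 1 call, 123 with DESeq2, 0 with limma voom, 0 in the 2 groups alone, 1744 without the 2 libraries and 0 to 114 without single ones. BSYQF against control gave 246, 826 with DESeq2, 90 with limma voom, 389 in the 2 groups alone, 427 without the 2 libraries and 9 to 563 without single ones. The cause of these shifts was not tested.

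The replicate numbers are not stated to pair libraries, and same-numbered libraries deviated from their group means with correlations of -0.26 to 0.34. Most libraries correlated best with a library of another number. With the replicate block 0 of the 8 were called in each comparison, and over all genes 15 were called for BSYQF over asthma, 237 for BSYQF over control and 1469 for asthma over control. Cd28 had too few counts to be tested, and the cause of its low counts was not tested.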

Other observations

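Some marker lists outside the receptor pathway were measured in the same libraries. Of 8 markers of group 2 innate lymphoid cells, which like helper T cells make type 2 cytokines, Arg1 alone rose in asthma against control (5.97 ± 1.15, adjusted p = 0.0195), a gene that macrophages also express. None of the list was called in either BSYQF comparison (medians -0.18 over asthma and 0.15 over control). Il1rl1, the IL-33 receptor, named after its values were seen, was at 5.94 ± 1.24 CPM in BSYQF lungs, 7.63 ± 1.003 CPM in asthma lungs and 6.94 ± 0.961 CPM in control lungs. Of 7 gamma delta T cell genes 3 were in the table and none was called. Sox13 was at 98.6 ± 10.8, 92.7 ± 31.1 and 131 ± 7.35 CPM in BSYQF, asthma and control lungs, while Blk, which B cells share, was at 26.6 ± 8.67, 19.2 ± 6.02 and 14.95 ± 6.50 CPM.

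Of 10 lung epithelial and endothelial markers, 4 had a log2 fold change above 0 in asthma against control (median -0.076). Foxj1 (0.86 ± 0.23, adjusted p = 0.0394) and Epcam (0.57 ± 0.14, adjusted p = 0.0299) rose there, and none was called in the BSYQF comparisons. Others, not called, had lower means in asthma than in control lungs, among them Cdh5 (537 ± 173 and 942 ± 214 CPM). Of 6 squamous markers, among them airway basal cell genes, 4 were tested, and 1 of these 4 was above 0 in asthma against control (median -1.90). That gene, Trp63, was not called. It was at 1.98 ± 1.02 CPM in BSYQF lungs, 1.97 ± 0.842 CPM in asthma lungs and 1.22 ± 0.433 CPM in control lungs. Krt5 (-4.13 ± 0.60, adjusted p = 0.00715) and Krt15 (-3.46 ± 0.59, adjusted p = 0.01005) fell in asthma against control, and Krt5 was the 1 gene of all tested that was called in BSYQF against asthma, at 4.86 ± 2.03 CPM in BSYQF lungs and 0.135 ± 0.0908 CPM in asthma lungs (5.15 ± 0.60, adjusted p = 0.0431).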
